A study of Mus musculus with 9 samples.

Results

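The 38 genes described here make, regulate or carry cholesterol and other lipids, and they were chosen by name: 17 enzymes of sterol synthesis, 3 regulators of the sterol response, 8 enzymes of fatty acid synthesis and 10 lipid carriers and transporters. Each gene was read by every probe set that the platform annotation assigns to its symbol alone. Of the 38 genes, 37 had such a probe set (68 probe sets in all), out of 12393 genes and 22690 probe sets on the array. Insig1 had none. After dim probe sets were left out, 36 of these genes and 61 of their probe sets remained, out of 8503 genes and 13576 probe sets tested. A gene with several probe sets is given by the brightest of them unless stated.

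Cells build cholesterol from acetyl-CoA through the mevalonate pathway, and the transcription factors SREBP1 and SREBP2 raise its enzymes when sterols are scarce, while Insig proteins hold them back. The same family of factors acts on the enzymes that build, lengthen and desaturate fatty acids. The brain makes its own cholesterol, and in the young brain astrocytes hand lipids to growing neurons on particles that hold apolipoprotein E.

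The barrel cortex receives whisker input, and its layer IV was cut out by laser microdissection. The mice were C57BL/6, at postnatal day 5, and knockout (KO), heterozygous (HZ) or wild type (WT) for Gap43, the gene of a growth cone phosphoprotein. There were 3 mice of each genotype and 1 array per mouse, 9 arrays in all, so n = 3 per genotype throughout. The labels point to a published mouse line and do not say which part of Gap43 is deleted, so the Gap43 probe set may lie outside it, where it checks nothing. Values are MAS5 signals, a linear fluorescence intensity, and a log2 difference is taken on log2(signal + 16).

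Gap43 itself had signals of 979, 1930.2 and 1299 in KO, 5015, 5039 and 4389 in HZ and 7089, 4746 and 4294 in WT. It fell in KO, with a log2 difference of -1.95 from WT (limma adjusted p = 0.0173) and of -1.82 from HZ (limma adjusted p = 0.0362), and its log2 difference between HZ and WT was -0.13 (95% interval -0.63 to 0.37, limma adjusted p = 0.915). That interval leaves out -1, but the Gap43 signal did not separate HZ from WT, and HZ is named by its label alone. Its difference kept its size but not its call when some arrays were left out: the adjusted p for KO against WT was 0.0502 to 0.0698 without KO 3, HZ 2, WT 1 or WT 2, and that for KO against HZ 0.0513 to 0.168 without KO 1, KO 3, HZ 1, HZ 2, HZ 3 or WT 2. Pearson's r between arrays, over the kept probe sets, was 0.958 to 0.978 within genotypes and 0.949 to 0.973 between them. All 11 neuron markers were above the filter. Rorb, a transcription factor known from layer IV neurons, had mean signals of 328 ± 27.4 in KO, 609 ± 95.5 in HZ and 529.7 ± 65.2 in WT (SD, n = 3 each). Its log2 difference was -0.66 between KO and WT (limma adjusted p = 0.435) and -0.86 between KO and HZ (limma adjusted p = 0.247). Every KO array was below every HZ and WT array for Rorb.

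No lipid gene passed the adjusted threshold of 0.05 in limma in any pair of genotypes. The background was 0.00737% of probe sets called in KO against WT, 0.00% in HZ against WT and 0.00737% in KO against HZ. By the brightest probe set, the smallest adjusted p among the 36 genes was 0.537, 0.789 and 0.524 for these pairs in the same order. At an unadjusted limma p under 0.05, 2 of 36 genes differed in KO against WT, both higher in KO (Fasn and Npc1), which is 5.56% beside 8.03% of all probe sets tested. In HZ against WT there were 4, Mvd and Hsd17b7 higher and Apod and Plpp3 lower in HZ, or 11.1% beside 6.22%. In KO against HZ there was 1, Srebf2, lower in KO, or 2.78% beside 7.73%. These counts and directions hold for the brightest probe set of each gene. Dimmer probe sets with such a p in KO against WT were those of Idi1, higher in KO, and Plpp3, lower in KO (limma adjusted p = 0.46). In HZ against WT they were those of Idi1, Sc5d and Abca1, all higher in HZ. In KO against HZ they were those of Plpp3 and Abca1, both lower in KO. Fewer cells of a type and less RNA per cell cannot be told apart in tissue of this kind.

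Also by the brightest probe set, the arrays of KO and WT did not overlap for 5 of the 36 genes (background 13.7% of probe sets). Fasn and Npc1 were higher in every KO array than in any WT array, and Srebf1, Srebf2 and Apoe were lower. The arrays of HZ and WT did not overlap for 5 genes (background 12.9%): Mvd, Fdft1 and Hsd17b7 lay higher in HZ, Apod and Plpp3 lower. The arrays of KO and HZ did not overlap for 7 genes (background 14.0%): Lss, Fasn and Npc1 lay higher in KO, and Sc5d, Srebf1, Srebf2 and Abca1 lower. As shares of 36 these counts are 13.9%, 13.9% and 19.4%.

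The size of difference that the arrays allow was bounded for most lipid genes. The 95% interval of the log2 difference lay wholly between -1 and 1 for 33 of 36 genes in KO against WT, for 34 in HZ against WT and for 34 in KO against HZ. The median distance from a difference to the end of its interval was 0.38 on the log2 scale, and the widest was 0.80, for Apod. Of the 36 log2 differences, 18 were above 0 in KO against WT, 20 in HZ against WT and 16 in KO against HZ. Their medians were 0.01, 0.02 and -0.02, and those of all probe sets tested were 0.02, 0.03 and -0.02.

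**Figure D1:**
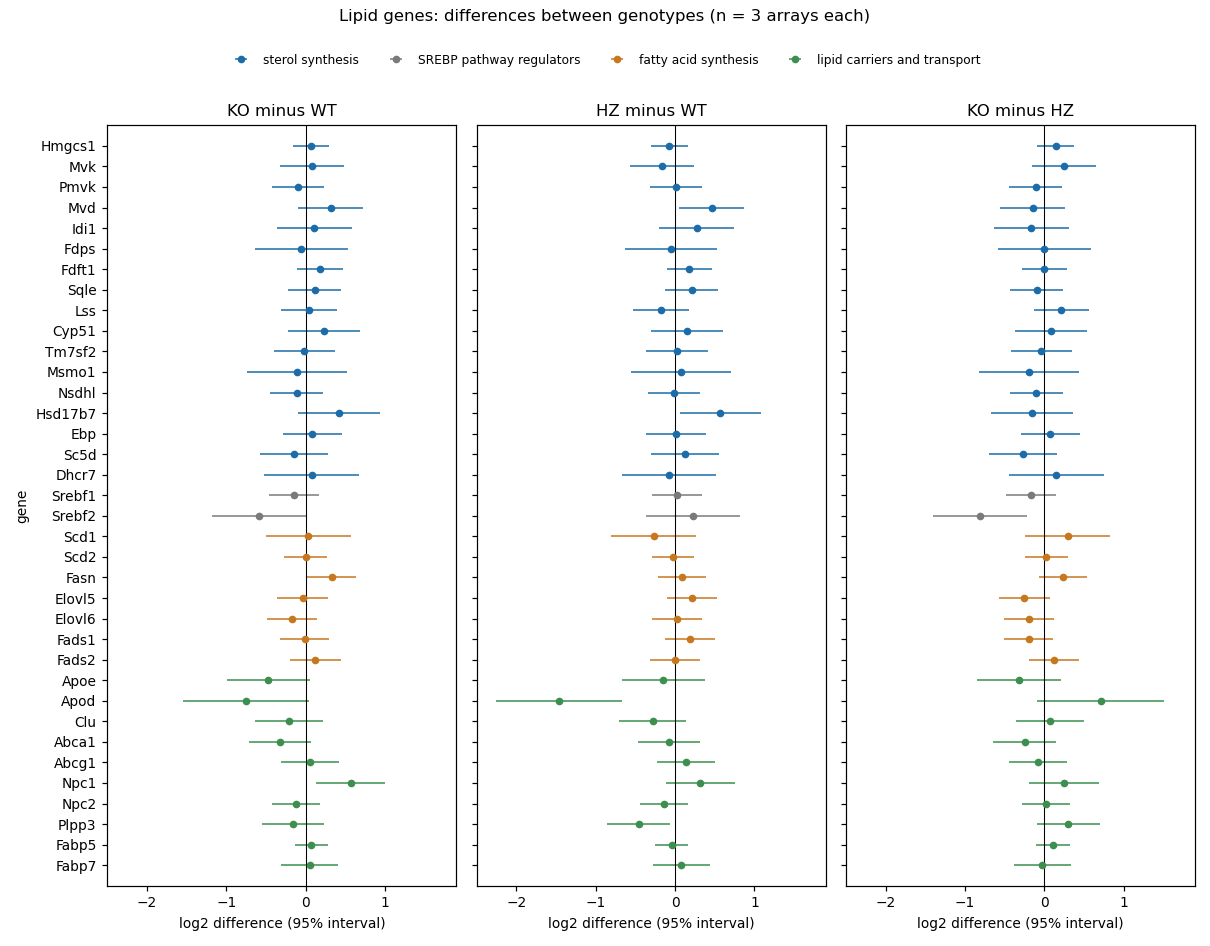
Log2 difference of each of the 36 lipid genes, with its 95% interval as a line, for KO minus WT, HZ minus WT and KO minus HZ (n = 3 arrays per genotype), coloured by the gene's role. All but 7 of the 108 intervals cross 0, and Apod in HZ against WT has the lowest point, at -1.46.

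By role, the 17 sterol enzymes had a median log2 difference of 0.08 in KO against WT (11 above 0, range -0.14 to 0.42), of 0.02 in HZ against WT (11 above 0, range -0.18 to 0.57) and of -0.04 in KO against HZ (6 above 0, range -0.27 to 0.24). The 7 fatty acid enzymes had medians of -0.00, 0.02 and 0.03 for the same pairs, with 3, 4 and 4 above 0. The 10 carriers and transporters had medians of -0.14, -0.11 and 0.05, with 4, 3 and 6 above 0, and the widest range, -1.46 to 0.32 in HZ against WT. Both regulators lay below 0 in KO against WT and in KO against HZ and above 0 in HZ against WT. No median of the sterol or fatty acid enzymes lay further from 0 than 0.08.

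Averaged per array as a deviation from the 9-array mean, the sterol enzymes spanned -0.12 to 0.09 in KO, -0.15 to 0.15 in HZ and -0.14 to 0.02 in WT. The fatty acid enzymes spanned -0.08 to 0.07 in KO, -0.06 to 0.12 in HZ and -0.08 to 0.06 in WT. In both groups of enzymes the 3 genotypes overlapped. The carriers spanned -0.08 to 0.05 in KO, -0.17 to -0.00 in HZ and -0.04 to 0.20 in WT, and these overlapped as well. The 2 regulators spanned -0.67 to -0.09 in KO, 0.02 to 0.33 in HZ and 0.01 to 0.14 in WT, so that KO lay below both other genotypes. The lowest was KO 1.

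The count of genes at an unadjusted p under 0.05 moved with single arrays. In KO against WT it was 1 without KO 1, without HZ 3 or without WT 3, and 4 without KO 2, against 2 with all arrays. In HZ against WT it was 2 without WT 1 or without WT 3, against 4. In KO against HZ it was 2 without KO 1, KO 3 or HZ 1 and 3 without HZ 2 or HZ 3, against 1. No lipid gene reached an adjusted p under 0.05 when any 1 array was left out.

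The promoters of the sterol enzymes shared a feature that their choice did not use. SREBP factors bind weakly alone, and at sterol genes they are known to work beside NF-Y, a factor that recognises the letters CCAAT. The window from 250 bases before to 50 bases after the start site was searched on both strands in RefSeq promoters of build GRCm38.p6, which held 28 of the 38 genes. A gene with several start sites was counted when any of its windows held the motif. The NF-Y box CCAAT lay in 14 of 14 sterol enzymes (100%), 3 of 3 regulators, 2 of 5 fatty acid enzymes (40%) and 2 of 6 carriers (33.3%). Of the tested genes with a promoter, 2936 of 6886 held it (42.6%), and of all windows of this length 37.4%. The 2 fatty acid genes were Fasn and Elovl5, and the 2 carriers were Npc2 and Fabp7. Fdps, Fdft1, Sqle, Scd1, Scd2, Fads1, Clu, Abcg1, Npc1 and Fabp5 were not part of the search.

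Other motifs were searched in the same windows. The GC box GGGCGG, bound by SP1, lay in 13 of 14 sterol enzymes (92.9%) and in 68.8% of the tested genes. The E-box CACGTG lay in 3 of 14 sterol enzymes (21.4%) and in 11.9% of the tested genes. The SREBP site, searched as TCACNCCAC, lay in Hmgcs1 alone among the 28 genes, and in 1.52% of the tested genes. Only these letters were matched, with any base at N, so SREBP sites spelled otherwise were not counted. These are matches of letters, and no binding was measured.

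**Figure D2:**
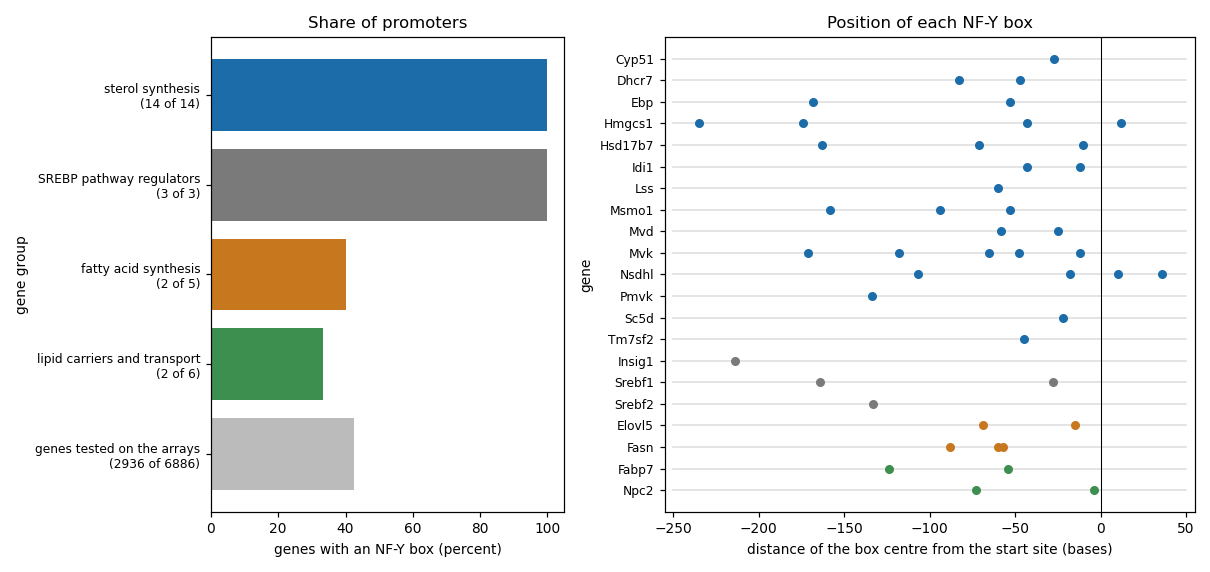
Left, percent of genes with an NF-Y box in the promoter window, by role and for the tested genes. Right, distance in bases from the start site to the centre of each NF-Y box in the genes that have one; all 14 sterol enzymes with a promoter appear, and Mvk has the most boxes, 5.

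The windows below belong to some of the lipid genes and are printed on the coding strand from 5′ to 3′. NF-Y boxes (either strand, so also as the reverse complement) and the SREBP site are in capitals. Whether these motifs bear on the differences between genotypes was not tested. Hmgcs1 is shown for its SREBP site, from base -137 to base -129 before the start, and its 4 NF-Y boxes. Mvd, Hsd17b7, Idi1 and Sc5d are shown as the sterol enzymes that lay higher in HZ than in WT by at least 1 probe set at an unadjusted p under 0.05. Srebf2 and Fasn are shown for their values in KO, and Apod as the carrier with the lowest value in HZ and with no box.
Hmgcs1, chr13:119690101-119690400, plus strand: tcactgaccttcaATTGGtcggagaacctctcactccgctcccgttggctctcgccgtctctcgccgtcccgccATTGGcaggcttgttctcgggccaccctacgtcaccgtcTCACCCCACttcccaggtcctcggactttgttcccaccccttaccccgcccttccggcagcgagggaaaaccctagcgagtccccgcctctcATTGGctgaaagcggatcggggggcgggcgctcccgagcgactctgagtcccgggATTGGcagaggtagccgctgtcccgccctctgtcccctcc
Mvd, chr8:122443373-122443672, minus strand: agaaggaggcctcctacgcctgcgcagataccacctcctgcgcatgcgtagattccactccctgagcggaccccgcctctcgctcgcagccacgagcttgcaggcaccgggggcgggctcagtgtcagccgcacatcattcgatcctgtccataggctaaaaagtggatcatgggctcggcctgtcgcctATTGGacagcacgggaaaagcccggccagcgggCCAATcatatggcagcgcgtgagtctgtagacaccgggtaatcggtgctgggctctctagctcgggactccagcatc
Hsd17b7, chr1:169969156-169969455, minus strand: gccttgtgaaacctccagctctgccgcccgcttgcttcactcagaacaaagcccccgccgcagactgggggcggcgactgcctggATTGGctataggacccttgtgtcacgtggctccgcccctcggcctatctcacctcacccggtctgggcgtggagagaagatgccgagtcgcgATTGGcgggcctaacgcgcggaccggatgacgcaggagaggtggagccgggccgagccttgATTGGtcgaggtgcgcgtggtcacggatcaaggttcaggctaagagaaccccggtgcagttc
Idi1, chr13:8885356-8885655, plus strand: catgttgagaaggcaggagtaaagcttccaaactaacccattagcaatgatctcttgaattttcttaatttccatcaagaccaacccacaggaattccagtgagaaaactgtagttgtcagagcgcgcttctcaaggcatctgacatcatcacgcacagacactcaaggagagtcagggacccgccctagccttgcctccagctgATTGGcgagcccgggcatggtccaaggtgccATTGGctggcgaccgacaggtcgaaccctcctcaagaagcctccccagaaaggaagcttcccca
Sc5d, chr9:42264251-42264550, minus strand: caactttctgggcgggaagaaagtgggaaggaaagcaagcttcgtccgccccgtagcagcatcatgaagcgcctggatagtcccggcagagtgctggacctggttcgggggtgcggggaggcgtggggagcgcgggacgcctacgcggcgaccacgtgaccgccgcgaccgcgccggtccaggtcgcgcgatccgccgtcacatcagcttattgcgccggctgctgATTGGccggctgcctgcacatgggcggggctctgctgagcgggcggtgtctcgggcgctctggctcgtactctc
Srebf2, chr15:82147019-82147318, plus strand: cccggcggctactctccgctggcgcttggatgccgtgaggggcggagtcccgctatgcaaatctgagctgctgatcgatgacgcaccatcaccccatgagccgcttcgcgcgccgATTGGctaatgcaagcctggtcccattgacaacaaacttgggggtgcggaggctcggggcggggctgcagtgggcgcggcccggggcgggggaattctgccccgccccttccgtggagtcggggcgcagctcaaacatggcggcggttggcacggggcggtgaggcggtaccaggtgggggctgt
Fasn, chr11:120824498-120824797, minus strand: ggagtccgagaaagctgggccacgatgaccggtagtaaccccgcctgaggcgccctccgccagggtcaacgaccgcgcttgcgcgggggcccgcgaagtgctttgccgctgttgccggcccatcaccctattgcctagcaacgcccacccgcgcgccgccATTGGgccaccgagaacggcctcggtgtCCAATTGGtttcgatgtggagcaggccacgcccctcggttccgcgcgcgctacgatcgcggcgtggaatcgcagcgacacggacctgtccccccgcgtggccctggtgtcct
Apod, chr16:31314759-31315058, minus strand: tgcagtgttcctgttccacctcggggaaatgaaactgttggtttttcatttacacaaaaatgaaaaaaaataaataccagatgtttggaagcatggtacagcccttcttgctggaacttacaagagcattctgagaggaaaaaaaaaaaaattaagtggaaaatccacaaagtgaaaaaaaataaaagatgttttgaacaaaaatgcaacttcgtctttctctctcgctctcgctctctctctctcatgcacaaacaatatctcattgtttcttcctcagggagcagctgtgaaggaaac
In these windows Hsd17b7 held 3 NF-Y boxes, Mvd and Idi1 held 2 each, Sc5d and Srebf2 held 1 each, and Fasn held 3, of which 2 overlap. Over the 14 sterol enzymes the 32 boxes had a median centre 53 bases before the start site (-53). Over the tested genes the median centre was at -88. In both sets 50% of the boxes had their centre from 150 to 40 bases before the start site.

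The first sterol enzyme, Hmgcs1 (HMG-CoA synthase, which feeds HMG-CoA into the mevalonate pathway), had signals of 19410.2, 21798 and 24422 in KO, 18668, 20134 and 20481 in HZ and 18579, 22697 and 21208 in WT. The 3 genotypes overlapped. Its log2 difference was 0.07 in KO against WT, -0.07 in HZ against WT and 0.14 in KO against HZ, with a 95% interval of -0.09 to 0.37 for KO against HZ. The highest signal of any probe set on the 9 arrays ranged from 20179.5 to 26504, so this probe set lay near the top of the range. Its 3 dimmer probe sets gave 0.20, 0.27 and 0.03 in KO against WT and 0.12, 0.27 and -0.14 in HZ against WT.

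Mvd, the decarboxylase that ends the mevalonate steps by making isopentenyl diphosphate, had signals of 576, 387 and 445 in KO, 479, 449.6 and 631 in HZ and 334, 396 and 380.1 in WT. Every HZ array was above every WT array, and KO spanned both. HZ differed from WT by a log2 difference of 0.46 ± 0.19 (SE, 95% interval 0.05 to 0.87, limma adjusted p = 0.789), 1.38-fold. In KO against WT it was 0.32 (interval -0.09 to 0.73, limma adjusted p = 0.725). A dimmer Mvd probe set gave 0.04 in HZ against WT and 0.08 in KO against WT. The interval took in 0 without HZ 3 (log2 difference 0.32), without WT 1 (0.39) and without WT 3 (0.48).

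Hsd17b7, a keto-reductase of the late sterol steps, had signals of 417, 246 and 289 in KO, 254, 354 and 465 in HZ and 198, 240.2 and 251 in WT. Every HZ array was above every WT array, the lowest HZ value by a small margin, and KO overlapped both. HZ differed from WT by 0.57 ± 0.24 (SE, 95% interval 0.06 to 1.09, limma adjusted p = 0.789), 1.49-fold. In KO against WT it was 0.42 (interval -0.10 to 0.93, limma adjusted p = 0.708). Its other probe set, with means of 199 in KO, 204 in HZ and 203 in WT, gave -0.04 in KO against WT and 0.01 in HZ against WT. The interval took in 0 without HZ 2 (0.56), HZ 3 (0.37) or WT 1 (0.48).

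Fdft1, squalene synthase, which commits the pathway to sterols, had signals of 6002, 4333 and 4772.5 in KO, 4845, 5323 and 4816 in HZ and 4395, 4403 and 4413 in WT. The WT arrays lay close together and below every HZ array, and 1 KO array fell below them. The log2 difference was 0.18 in both KO against WT and HZ against WT (limma adjusted p = 0.768 and 0.819). Sc5d, a sterol desaturase, had signals of 263, 265.5 and 178 in KO, 276.5, 269.5 and 305 in HZ and 307, 211 and 266 in WT. KO lay below HZ on every array, with a log2 difference of -0.27 (limma adjusted p = 0.807). A dimmer Sc5d probe set gave 0.68 in HZ against WT (limma adjusted p = 0.789), where the brighter one gave 0.13. The WT mean of the dimmer one, 99.7, was below 118, the lowest mean signal that the filter kept.

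The other 12 sterol enzymes had intervals that held 0 in every pair for the brightest probe set. Mvk and Pmvk, the kinases that act on mevalonate, had log2 differences of 0.08 and -0.10 in KO against WT and of -0.17 and 0.01 in HZ against WT. Idi1, which isomerises isopentenyl diphosphate, had 0.11 in KO against WT and 0.27 in HZ against WT, and its other probe set gave 0.36 (limma adjusted p = 0.622) and 0.38 (limma adjusted p = 0.789). Fdps, which makes farnesyl diphosphate, had -0.05 in both. Sqle, squalene epoxidase, had 0.11 and 0.21, and Lss, lanosterol synthase, had 0.04 and -0.18.

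Among the enzymes that turn lanosterol into cholesterol, Cyp51, a demethylase, had 0.23 in KO against WT and 0.15 in HZ against WT. Tm7sf2, a reductase, had -0.02 and 0.02. Msmo1 and Nsdhl, which remove methyl groups, had -0.11 and -0.11 in KO against WT and 0.08 and -0.01 in HZ against WT. Ebp, an isomerase, had 0.09 and 0.01. Dhcr7, a reductase of the last step, had 0.08 and -0.07, with KO 1 at a signal of 861 and the other 8 arrays between 344 and 562. These enzymes thus lay on both sides of 0 in both comparisons.

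**Figure D3:**
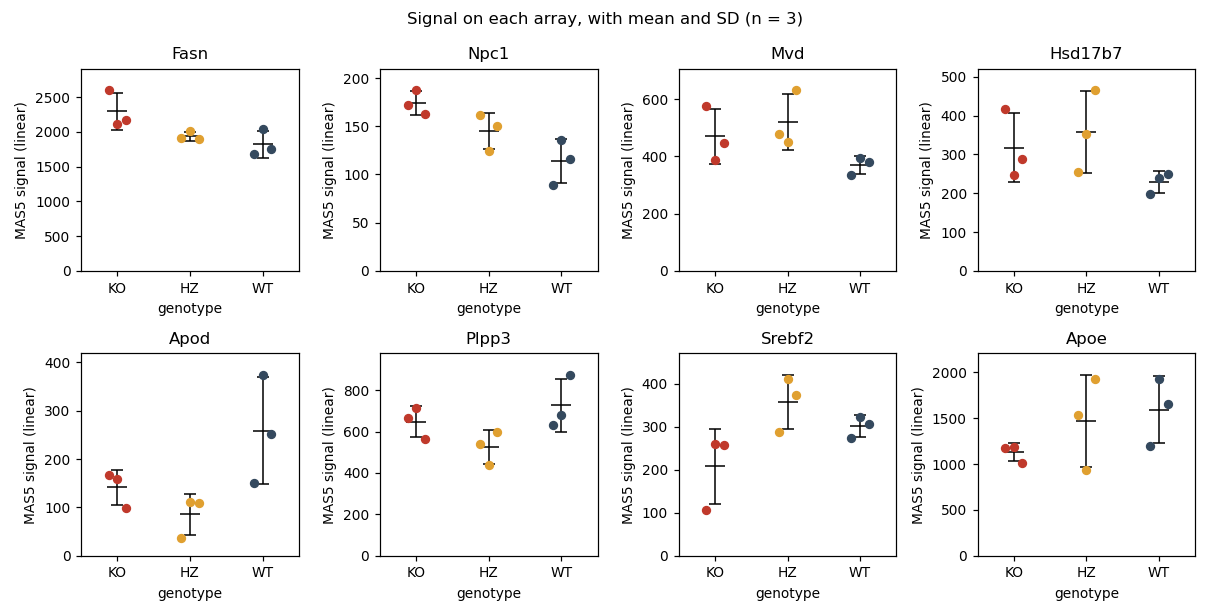
MAS5 signal (linear) on each array, as points by genotype with bars for the mean and SD (n = 3), for Fasn, Npc1, Mvd, Hsd17b7, Apod, Plpp3, Srebf2 and Apoe. Fasn and Npc1 lie higher in KO than in WT on every array, and Apod and Plpp3 lie lower in HZ than in WT on every array.

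The signals of several sterol enzymes were ordered like a property of the arrays that crossed the genotypes. The ratio of 3' to 5' control probe sets shows how much less signal comes from the 5' end of a transcript, and it is known to rise with broken RNA and with amplification. On the log2 scale it was 3.75, 3.85 and 3.49 in KO, 3.33, 4.72 and 3.31 in HZ and 3.43, 3.96 and 3.33 in WT. The 4 highest were HZ 2, WT 2, KO 2 and KO 1, so each genotype had at least 1.

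Msmo1 had signals of 699.6, 862.5 and 1318 in KO, 1252, 779.9 and 1215 in HZ and 1200.3, 639.9 and 1309.7 in WT. Its 4 lowest arrays were the 4 with the highest ratio. Fdps had 308, 336 and 475 in KO, 502, 235 and 419 in HZ and 468, 290.1 and 408 in WT, and its 4 lowest arrays were the same ones. Idi1 had 2051, 2602 and 2630.1 in KO, 3028, 2193 and 2977 in HZ and 2671, 1523 and 2745 in WT, and those 4 arrays were again its lowest. Its other probe set did not follow that order, with HZ 2 as its highest array (2818). Nsdhl had 1479, 1329 and 1424 in KO, 1716, 1247 and 1614 in HZ and 1531, 1429 and 1624 in WT, with its lowest value on HZ 2.

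With genotype in the fit, the slope per unit of the log2 ratio was -0.73 ± 0.17 (SE) for Fdps (limma adjusted p = 0.166) and -0.70 ± 0.21 for Msmo1 (limma adjusted p = 0.262). For the brightest Idi1 probe set it was -0.47 ± 0.17 (limma adjusted p = 0.327), for the other one 0.06 ± 0.16 (limma adjusted p = 0.928) and for Nsdhl -0.28 ± 0.12 (limma adjusted p = 0.416). No probe set passed the adjusted threshold (0.00%), while 11.3% had an unadjusted limma p under 0.05, 6.78% with a negative slope and 4.48% with a positive one. By the brightest probe set, 13 of the 17 sterol enzymes had a negative slope, and 4 reached an unadjusted p under 0.05, all negative. Their median slope was -0.17, beside -0.03 over all probe sets tested. None of the 7 fatty acid enzymes and 1 of the 10 carriers, Clu, reached that p by the brightest probe set, Clu with a slope of 0.37 ± 0.16 (limma adjusted p = 0.408). Some dimmer probe sets reached it too. Their slopes were -0.56 for Fdft1, -0.50 for Scd2, -0.33 for Npc2 and 0.49 and 0.46 for Clu. With the ratio as a term in the fit, the log2 difference in KO against WT was 0.04 for Fdps, -0.02 for Msmo1, 0.17 for Idi1 and -0.08 for Nsdhl. For the same genes it was 0.11, 0.23, 0.38 and 0.05 in HZ against WT. Without the term the values were -0.05, -0.11, 0.11 and -0.11 in KO against WT and -0.05, 0.08, 0.27 and -0.01 in HZ against WT.

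**Figure D4:**
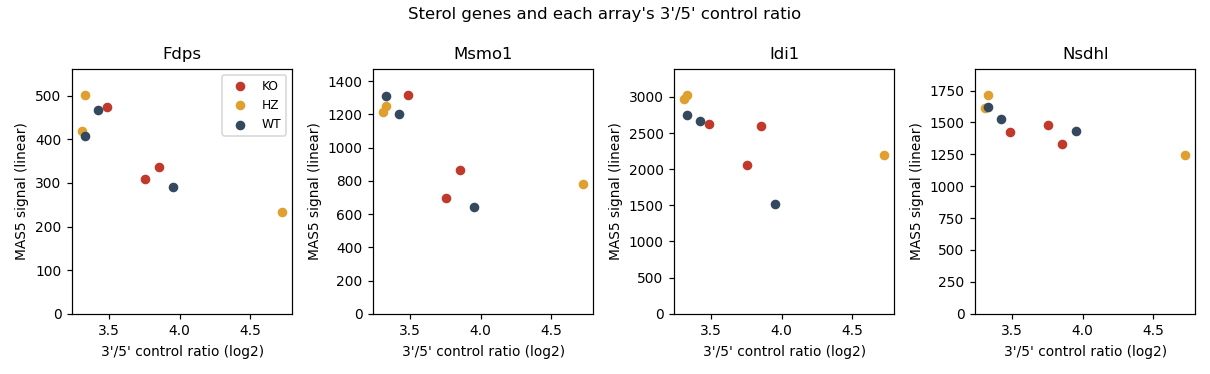
MAS5 signal (linear) of Fdps, Msmo1, Idi1 and Nsdhl on each of the 9 arrays against the log2 ratio of 3' to 5' control probe sets, coloured by genotype. The 4 arrays to the right, from all 3 genotypes, hold the 4 lowest signals of Fdps, Msmo1 and the brightest Idi1 probe set.

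Of the regulators, Srebf2, which encodes the SREBP that mainly drives sterol genes, had signals of 107, 259 and 258 in KO, 289, 410.4 and 373 in HZ and 273, 323 and 306 in WT. Every KO array was below every HZ and WT array, and KO 1 was far below the other two. The log2 difference between KO and HZ was -0.81 ± 0.27 (SE, 95% interval -1.41 to -0.22, limma adjusted p = 0.524), 1.76-fold lower. Between KO and WT it was -0.59 (interval -1.18 to 0.01, limma adjusted p = 0.63), and between HZ and WT 0.23. Without KO 1 these were -0.43 for KO against HZ (limma adjusted p = 0.675) and -0.20 for KO against WT (limma adjusted p = 0.989). A dim second Srebf2 probe set, with means of 80.8 in KO, 76.5 in HZ and 47.9 in WT, was below the filter.

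Srebf1, whose product acts mainly on fatty acid genes, had signals of 456, 459.9 and 457 in KO, 485, 535 and 535 in HZ and 504, 481 and 547 in WT. The KO arrays lay close together and below all others. The log2 difference was -0.15 between KO and WT (95% interval -0.46 to 0.16), -0.17 between KO and HZ (interval -0.48 to 0.14) and 0.02 between HZ and WT (limma adjusted p = 0.826, 0.836 and 0.978). No value for Insig1, which holds SREBP in the endoplasmic reticulum, was used here.

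Among the fatty acid genes, Fasn, the synthase that builds palmitate, had signals of 2599, 2106 and 2174 in KO, 1909, 2013 and 1894 in HZ and 1676, 2045 and 1751 in WT. Every KO array was above every HZ and WT array. The log2 difference between KO and WT was 0.33 ± 0.14 (SE, 95% interval 0.02 to 0.63, limma adjusted p = 0.596), 1.25-fold. Between KO and HZ it was 0.23 (limma adjusted p = 0.74) and between HZ and WT 0.09. The interval for KO against WT took in 0 without any 1 of KO 1 (log2 difference 0.23), HZ 1 (0.33), HZ 3 (0.33), WT 1 (0.27) or WT 3 (0.30). Acaca, which makes the malonyl-CoA that Fasn uses, was below the filter, with signals of 109, 103 and 85.3 in KO, 109, 107 and 113 in HZ and 79.8, 124 and 96.3 in WT.

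Elovl5 and Elovl6 lengthen fatty acids. Elovl5 had signals of 4623, 3739 and 3762 in KO, 3954, 5576 and 5002 in HZ and 3896, 4355.5 and 4159.5 in WT. Elovl6 had 1277, 1418 and 1653 in KO, 1787, 1695.5 and 1471 in HZ and 1571, 1664 and 1630.5 in WT. Both overlapped between all genotypes, with log2 differences of -0.04 and -0.17 in KO against WT, of 0.21 and 0.02 in HZ against WT and of -0.25 and -0.19 in KO against HZ.

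Fads1 and Fads2 desaturate polyunsaturated fatty acids. Fads1 had signals of 1747, 1722 and 1399.9 in KO, 1697, 1863 and 2025 in HZ and 1594, 1754 and 1550.5 in WT. Fads2 had 1217, 1054 and 1144 in KO, 989.6, 979 and 1166 in HZ and 1041, 1137 and 959 in WT. The genotypes overlapped for both, and the log2 difference in KO against WT was -0.01 for Fads1 and 0.12 for Fads2. Scd1 and Scd2, which make monounsaturated fatty acids, had log2 differences of 0.03 and -0.00 in KO against WT and of -0.27 and -0.03 in HZ against WT.

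Of the 36 genes, Apod had the widest difference and the widest intervals. Apod, a secreted lipocalin that binds small lipids, had signals of 166, 158 and 99.5 in KO, 36.8, 111 and 109 in HZ and 151, 373 and 253 in WT. Every HZ array was below every WT array, HZ 1 was the lowest and WT 2 the highest, and KO overlapped both. The log2 difference between HZ and WT was -1.46 ± 0.37 (SE, 95% interval -2.26 to -0.66, limma adjusted p = 0.789). It was -1.04 without HZ 1. The HZ mean of 85.4 was below the lowest mean kept (118), so Apod was dim and passed through its KO and WT arrays. Between KO and WT it was -0.75 (interval -1.55 to 0.05, limma adjusted p = 0.647), and between KO and HZ 0.71 (interval -0.09 to 1.51, limma adjusted p = 0.693).

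Apoe, the main apolipoprotein of the brain, had signals of 1178, 1189 and 1014 in KO, 1539.8, 938 and 1930.2 in HZ and 1199, 1927 and 1652 in WT. All KO arrays were below all WT arrays, the nearest pair by a narrow margin, and HZ spanned both. The log2 difference between KO and WT was -0.47 (95% interval -0.99 to 0.05, limma adjusted p = 0.669). It was -0.32 without WT 2 and -0.66 without WT 1. Between HZ and WT it was -0.15.

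Npc1, which moves cholesterol out of lysosomes, had signals of 172, 187 and 163 in KO, 162, 124 and 149.9 in HZ and 89.6, 136 and 116 in WT. Every KO array was above every HZ and WT array. KO differed from WT by a log2 difference of 0.57 ± 0.20 (SE, 95% interval 0.13 to 1.0, limma adjusted p = 0.537). Without WT 1, where the interval took in 0, it was 0.42 (limma adjusted p = 0.813). The WT mean of 114 was also below 118, so this gene was dim, and it passed the filter through its KO and HZ arrays.

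Plpp3, a lipid phosphatase of the cell surface, had signals of 664, 715.5 and 565 in KO, 538, 436 and 599 in HZ and 630.0, 681 and 873 in WT. Every HZ array was below every WT array. HZ differed from WT by a log2 difference of -0.46 ± 0.18 (SE, 95% interval -0.85 to -0.07, limma adjusted p = 0.789), 1.37-fold lower, and between KO and WT -0.16. Its other probe set showed another order, with means of 302 ± 45.7 in KO, 429.7 ± 30.4 in HZ and 454 ± 21.0 in WT (SD, n = 3 each). There the log2 difference was -0.57 in KO against WT (limma adjusted p = 0.46), -0.49 in KO against HZ (limma adjusted p = 0.502) and -0.08 in HZ against WT. For the first probe set, the interval in HZ against WT took in 0 without HZ 2 (log2 difference -0.34) or without WT 3 (-0.32).

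Abca1, which loads cholesterol onto apolipoproteins, had a log2 difference of -0.32 in KO against WT (limma adjusted p = 0.7), of -0.07 in HZ against WT and of -0.25 in KO against HZ. Its other probe set gave -0.01, 0.44 (limma adjusted p = 0.789) and -0.45 (limma adjusted p = 0.606). Clu, the apolipoprotein clusterin, had -0.21, -0.28 and 0.07 for these pairs. Abcg1, a cholesterol exporter, had 0.05, 0.14 and -0.08, and Npc2, the lysosomal partner of Npc1, had -0.12, -0.14 and 0.02. Fabp5 and Fabp7, cytosolic fatty acid carriers, had 0.07 and 0.05 in KO against WT and -0.04 and 0.08 in HZ against WT. All of these intervals held 0 for the brightest probe set.

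Astrocytes make apolipoprotein E and several other carriers, and their markers are given here beside the carriers. Of 16 markers, 15 were on the array, 12 passed the filter and none was listed at 0 (lowest signal 13.5). Their summed signal was 11608 to 16134 in KO, 15829 to 17075 in HZ and 16822 to 21146 in WT. In KO against WT 10 of 12 lay below 0 with a median log2 difference of -0.38, and 6 reached an unadjusted limma p under 0.05, all lower. That is 50% beside 8.03% of all probe sets tested. In HZ against WT the median was -0.17 and 1 reached that p (8.33% beside 6.22%). In KO against HZ the median was -0.31 and 4 did (33.3% beside 7.73%). No marker passed the adjusted threshold, the smallest adjusted p being 0.114 in KO against WT. S100b, with a KO mean of 108, passed the filter through its HZ and WT arrays. Of the 10 carriers, 6 lay below 0 in KO against WT, Apoe, Abca1 and Plpp3 among them, and 4 above (Abcg1, Npc1, Fabp5 and Fabp7). The part of astrocyte RNA in the values of the carriers in KO was not tested.

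In HZ against WT, where Apod was lower, the 4 microglia markers kept of 11 had a median log2 difference of -0.12 and a summed signal of 1196 to 1750.3 in HZ and 1209 to 2958 in WT. The highest was WT 2, which also had the highest Apod and Clu. The 9 endothelial and mural markers kept had a median of 0.17, the 9 oligodendrocyte lineage markers 0.03 and the 11 neuron markers -0.02. For KO against WT these medians were -0.37 for microglia, -0.07 for endothelial and mural, 0.08 for oligodendrocyte lineage and 0.05 for neuron markers. Their part in the values of the carriers was not tested.

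The probe sets of 1 gene often differed. Of the 36 genes, 18 had at least 2 probe sets above the filter, 43 in all. Their probe sets lay on different sides of 0 for 6 genes in KO against WT (Cyp51, Fabp5, Fads2, Hsd17b7, Lss and Sc5d). They did so for 7 genes in HZ against WT (Abca1, Cyp51, Elovl6, Fads2, Hmgcs1, Lss and Scd2) and for 9 in KO against HZ. Fasn, Apod, Npc1 and Apoe had 1 probe set each, so no second reading was at hand for them. Over all 61 probe sets the unadjusted limma p was under 0.05 for 4 in KO against WT (6.56%), 7 in HZ against WT (11.5%) and 3 in KO against HZ (4.92%), beside 8.03%, 6.22% and 7.73% of all probe sets tested.

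**Figure D5:**
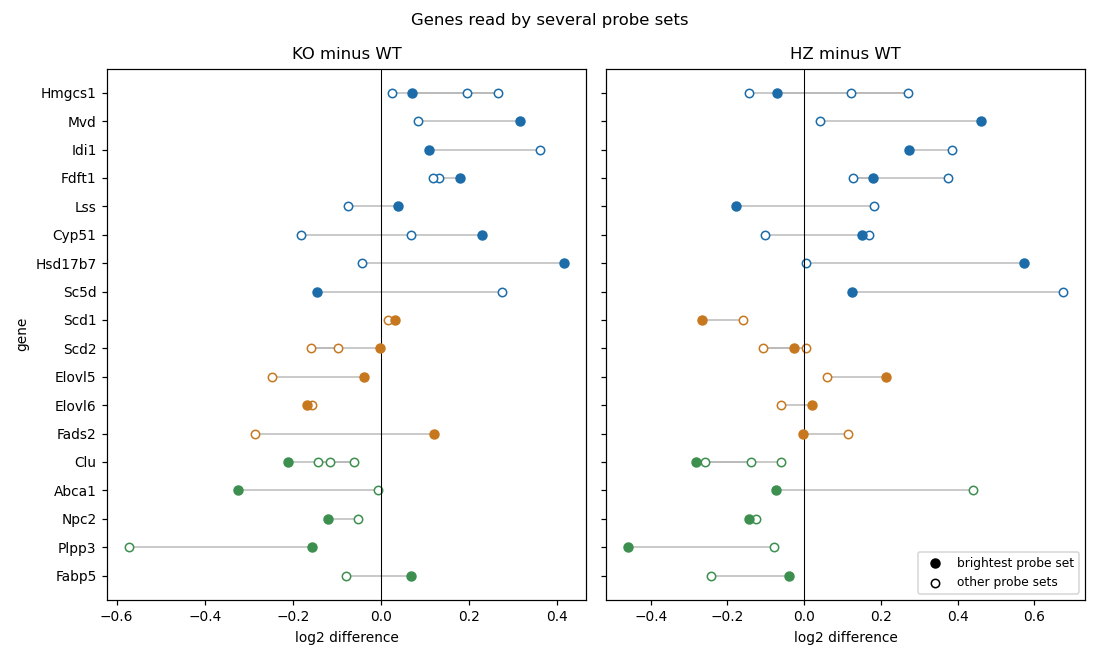
Log2 difference of every probe set above the filter, for the 18 genes with at least 2, in KO minus WT and HZ minus WT; filled points are the brightest probe set and open points the others. The probe sets of Plpp3, Mvd, Hsd17b7 and Sc5d lie far apart in at least 1 panel.

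A further 55 genes of the same pathways were looked at beside these, of which 42 were on the array and 36 passed the filter. None passed the adjusted threshold in limma. At an unadjusted p under 0.05 there were 6 in KO against WT, 2 in HZ against WT and 6 in KO against HZ (16.7%, 5.56% and 16.7%, beside 8.03%, 6.22% and 7.73% of all probe sets). Their medians were -0.07, 0.04 and -0.08.

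Acly, which makes the acetyl-CoA for both pathways, had mean signals of 5114 ± 377 in KO, 4757 ± 546 in HZ and 4032 ± 615 in WT (SD, n = 3 each), and all KO arrays were above all WT arrays. Its log2 difference between KO and WT was 0.35 (limma adjusted p = 0.576), beside 0.33 for Fasn. Insig2, a relative of Insig1, had 551 ± 177 in KO, 722 ± 52.8 in HZ and 801 ± 71.4 in WT, with a log2 difference of -0.57 between KO and WT (limma adjusted p = 0.537). Mcat, of mitochondrial fatty acid synthesis, had 216 ± 73.2 in KO, 181 ± 52.9 in HZ and 321 ± 17.0 in WT. Its log2 difference from WT was -0.59 in KO (limma adjusted p = 0.589) and -0.82 in HZ (limma adjusted p = 0.789).

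Acsl5, which activates fatty acids, had 849 ± 48.9 in KO, 1329 ± 141 in HZ and 1211 ± 252 in WT. Its log2 difference was -0.63 between KO and HZ (limma adjusted p = 0.404) and -0.49 between KO and WT (limma adjusted p = 0.537). Thrsp, a regulator of lipid synthesis in liver, had 83.5 ± 25.8 in KO, 150.2 ± 8.96 in HZ and 138 ± 26.4 in WT, with -0.77 between KO and HZ (limma adjusted p = 0.45) and -0.65 between KO and WT (limma adjusted p = 0.537). Pltp, which transfers phospholipids between lipoproteins, had 438 ± 116 in KO, 734 ± 157 in HZ and 679 ± 184 in WT, with -0.73 between KO and HZ (limma adjusted p = 0.507) and -0.60 between KO and WT (limma adjusted p = 0.58). The KO mean of Thrsp was below the lowest mean the filter kept (118), so Thrsp passed it through its HZ and WT arrays.

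Abcg4, a sterol exporter of neurons and glia, had 399 ± 84.8 in KO, 497 ± 119 in HZ and 327 ± 30.8 in WT, and 0.56 between HZ and WT (limma adjusted p = 0.789). Acss2, which makes acetyl-CoA from acetate, had 450.4 ± 169 in KO, 658 ± 117 in HZ and 593 ± 68.4 in WT, and -0.58 between KO and HZ (limma adjusted p = 0.604). Cyp46a1, which turns brain cholesterol into an exportable oxysterol, had 691 ± 168 in KO, 949 ± 57.4 in HZ and 798 ± 150 in WT, and -0.48 between KO and HZ (limma adjusted p = 0.606). Dbi, which binds acyl-CoA, had 3951 ± 865 in KO, 5210 ± 702 in HZ and 4939 ± 650 in WT, and -0.41 between KO and HZ (limma adjusted p = 0.607). All 4 of these genes had their highest mean in HZ. Each was named for a difference between HZ and another genotype, so this order follows in part from the choice.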

How the data were processed

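Each deposited value is a linear intensity of 1 probe set. Per the submitters' processing notes, the authors used MAS5 in Affymetrix Expression Console, with versions and scaling target not given in the sources used here. RNA went through a double round of cDNA synthesis, per the labels' protocols. The mean after leaving out 2% of probe sets at each end was 500.2 on every array, so no further scaling was applied; such scaling assumes that most transcripts keep 1 level.

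Genotypes were taken from the sample titles. The brightest 60% of probe sets by mean log2(signal + 16) over the 9 arrays were kept (13576; lowest mean signal 118), 64 controls being left out. A linear model with genotype alone was fitted with limma 3.58.1 in R 4.3.3 (intensity trend, 6 residual and 6.94 prior degrees of freedom). Tests were 2-sided, with Benjamini-Hochberg adjustment over all kept probe sets and a threshold of 0.05. The fit was tested on simulated data. The p-values rest on the spread between animals of the same genotype, pooled over the 3 genotypes and moderated by that of all kept probe sets. The number of arrays limits their precision.

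Genes were named from the platform annotation, where 20380 probe sets had 1 symbol, 691 several and 1555 none. The genes and lists were chosen with earlier results of these data known. All array values were given for the 3 genes of smallest p in KO against WT and the 2 of smallest p in each other pair, per role, and for any with an unadjusted p under 0.05. Promoters came from RefSeq (GRCm38.p6). Alternatives were another pseudocount (1 or 64), no filter or the brightest 40%, quantile or median scaling, no trend, array weights, the replicate number as a block, the 3'/5' ratio as a term, the mean of a gene's probe sets, and leaving out each array.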

Additional observations from a re-analysis of the deposited data

How the results depend on the processing

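Under the 20 alternatives the 7 differences of lipid genes with an interval that left out 0 kept their direction, and no lipid gene reached an adjusted p under 0.05 in limma under any of them. Across all 108 differences of lipid genes, 55 changed sign at least once, in 146 of 2154 values. Srebf2 in KO against HZ (-1.01 to -0.43) had an unadjusted limma p under 0.05 in all 20 alternatives. Apod in HZ against WT (-1.78 to -1.04) had such a p in the 19 run for it. Apod was too dim for the stricter filter, and its HZ mean of 85.4 was below 118, the lowest mean kept. The range for Apod therefore does not cover that filter. The unadjusted limma p was over 0.05 under 7 alternatives for Fasn, 4 for Mvd, 4 for Hsd17b7, 3 for Plpp3 and 1 for Npc1. Npc1, also dim, had 19 alternatives as well. With the mean of a gene's probe sets, the log2 difference in HZ against WT was 0.25 for Mvd, 0.29 for Hsd17b7 and -0.27 for Plpp3.

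The count of lipid genes at an unadjusted p under 0.05 in KO against WT (2) was 1 with the 40% filter or no trend and 4 with quantile normalization or the gene mean. In HZ against WT (4) it was 2 with the gene mean, and in KO against HZ (1) it was 2 with array weights, the 3'/5' term or the gene mean. Leaving out 1 array gave 1 to 4, 2 to 5 and 1 to 3 for these pairs. The median of the fatty acid enzymes in KO against HZ was -0.14 with the gene mean, and without 1 array it ran from -0.10 to 0.12, and from -0.059 to 0.10 in KO against WT.

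Probe sets called over the whole array numbered 0 in KO against WT with no filter or no trend and 5 with array weights, against 1. In HZ against WT there were 3 with array weights, against 0. In KO against HZ there were 0 with no filter, quantile normalization, 1 median or no trend and 3 with the 3'/5' term, against 1. Leaving out 1 array gave 0 to 2 in each pair. Gap43 lost its call in KO against WT with no filter (-1.95, limma adjusted p = 0.204) and no trend (-1.95, limma adjusted p = 0.0824). In KO against HZ it did so with no filter (-1.82, limma adjusted p = 0.287), quantile normalization (-1.84, limma adjusted p = 0.0761), 1 median (-1.80, limma adjusted p = 0.0681) and no trend (-1.82, limma adjusted p = 0.144). Without 1 array its difference was -2.20 to -1.72 and -2.08 to -1.59. The cause of these changes was not tested.

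The labels do not say whether same-numbered animals were littermates or handled together, so replicate numbers were not treated as pairs. Of 9 correlations between same-numbered arrays of different genotypes 1 was over 0.1 (range -0.26 to 0.11). Such correlations cannot show whether the animals were paired. With a replicate block, KO against HZ had 2 probe sets called and 2 lipid genes at an unadjusted p under 0.05, against 1 and 1. With 3 arrays per genotype, lipid genes with small differences could not be told from 0, and dim genes (Npc1, Apod, Acaca) had signals near the filter.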
